A study of Mus musculus with 25 samples.

Results

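The 10 genes described here are heat shock genes: 9 chaperones or co-chaperones named for that response (Hspa1a, Hspa1b, Hspa8, Hsph1, Hsp90aa1, Dnajb1, Hspb1, Hspd1 and Hspe1) and Bag3, a co-chaperone that the same response controls. They were chosen by name, as the rows carrying these 10 gene symbols among the 30524 genes of 5 tables of liver expression. All 10 were found, and 9 of them passed the filter on low values that 12741 genes passed. Hspa1a did not pass it and was not tested. Each library came from the liver of a separate C3H/HeJ mouse, a strain prone to liver cancer, and the labels describe males that were 5 weeks old when the study began. Mice of the DEN_CAF_SOR group (5 libraries) received the liver carcinogen diethylnitrosamine and then both caffeine and sorafenib, a kinase inhibitor used against liver cancer. Mice of the DEN_SOR group (4 libraries) received the carcinogen and then sorafenib. Mice of the DEN_CAF group (5 libraries) received the carcinogen and then caffeine. Mice of the DEN group (6 libraries) received the carcinogen and only the drugs' vehicles, and Untreated mice (5 libraries) received saline in place of the carcinogen. The carcinogen was injected into the peritoneum at 25 mg/kg, 2 times a week, in 5 cycles of 3 weeks with 1 week of rest. After a further month of rest, caffeine at 50 mg/kg was given 3 times a week, and sorafenib at 30 mg/kg 2 times a week, for 3 weeks by the stomach. The labels name the tissue as liver without saying whether tumour or surrounding tissue was taken.

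Heat shock proteins hold other proteins in, or return them to, their folded state. HSP70 proteins bind exposed stretches of unfolded chains in a cycle driven by ATP, J-domain proteins such as Dnajb1 deliver clients to them, and nucleotide exchange factors such as Hsph1 and Bag3 release them. HSP90 proteins act later, on nearly folded clients that include many kinases and steroid receptors, small heat shock proteins such as Hspb1 keep unfolded chains from clumping, and Hspd1 and Hspe1 form the folding chamber of mitochondria. Most of these genes are switched on by the transcription factor HSF1 when unfolded proteins accumulate, and the liver, with its large output of secreted proteins, carries the constitutive members at high levels.

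The read totals ran from 14750278 to 21992613 per library. The hepatocyte gene Alb was present in every library, at 14528 to 58618 FPKM (reads scaled by gene length and library total, the level used throughout, computed here from the reads behind the deposited values). Libraries 3, 4 and 5 of the Untreated group held 22879, 29770 and 13370 reads of Xist, an RNA of female cells, while the carcinogen-exposed libraries held at most 21. Ddx3y, a gene of the Y chromosome, had 84, 30 and 48 reads in them, against 1028 and 1373 in Untreated 1 and 2. The carcinogen-exposed libraries had 914 to 1689 reads of Ddx3y, except DEN 4 with 132. The labels describe males, but the reads of Untreated 3, 4 and 5 form a female pattern. These libraries are called by their labels only, and the calls against Untreated are also given without them. In calls that include them, apparent sex and treatment cannot be fully told apart. The libraries numbered 3 or 4 averaged 19.2% ± 9.51 of their reads in mitochondrial genes (SD, n = 10), against 7.46% ± 0.967 in the other libraries (SD, n = 15). DEN 4 at 9.58% and Untreated 4 at 6.36% were exceptions, inside the range of the other libraries (5.65% to 9.81%).

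The promoters of 8 members are listed in RefSeq (GRCm38.p6), some with 2 start sites. At 1 or more listed starts, 7 of the 8 hold a pair of inverted heat shock units. The search used GAANNTTC and TTCNNGAA, each its own reverse complement, in windows of 250 bases before to 50 after each start site. At least 1 of these matches stood in 15.1% of all 32851 promoters listed, counted by start site and not by gene. The longer forms GAANNTTCNNGAA and TTCNNGAANNTTC, which contain the shorter ones and are each other's reverse complement, stood in 0.603% of promoters and in those of 3 members, Hspd1, Hspe1 and Hsph1. Dnajb1 held no match in its 2 listed windows, and the window of the first listed start of Hspd1 held none. The upstream bases of Hspe1 hold a run of 4 alternating units, in capitals. They are shown because the run also lies upstream of the second listed start of Hspd1, which is read in the opposite direction. The site of Hsph1, with 3 units in capitals, and those of Hspb1 and Bag3, with 2 units each, are shown for comparison. Those of Hsph1 and Bag3 lie past the start, beginning at position 37 from the first listed start of Hsph1 and 43 from that of Bag3. The Hspb1 units begin 117 bases before the start. The Hspe1 stretch is chr1:55087898-55088147 on the plus strand, the Hsph1 site chr5:149636287-149636314 on the minus strand, the Hspb1 site chr5:135887792-135887819 on the plus strand and the Bag3 site chr7:128523605-128523632 on the plus strand.
Hspe1 upstream: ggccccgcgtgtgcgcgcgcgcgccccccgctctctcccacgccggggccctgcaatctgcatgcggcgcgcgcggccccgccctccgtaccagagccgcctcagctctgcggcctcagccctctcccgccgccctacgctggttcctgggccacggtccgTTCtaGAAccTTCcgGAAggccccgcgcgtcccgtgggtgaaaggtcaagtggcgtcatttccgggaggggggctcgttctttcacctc
Hsph1 site: taaaatgctgcagaTTCtgGAAagTTCt
Hspb1 site: ttcaacaagaGAAgtTTCcagatggggg
Bag3 site: aagttctctggatgggaccaGAAgtTTC
The first unit of the run began 89 bases before the Hspe1 start and, counted on the opposite strand, 144 bases before the second listed start of Hspd1. A match of letters is a description of the window and not a measured binding site.

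Hsp90aa1 and Hsph1 were the only members called with limma between groups, in DEN_SOR against Untreated alone. Neither passed the limma F-test over all 5 groups (adjusted p = 0.0799 and 0.242). A limma fit of only the groups compared called neither, and without Untreated 3, 4 and 5 Hsp90aa1 alone passed. Both rose in DEN_SOR livers relative to Untreated livers, Hsp90aa1 to 52.1 ± 21.0 FPKM against 22.5 ± 6.56, and Hsph1 to 4.34 ± 2.10 FPKM against 1.48 ± 0.558 (SD, n = 4 and 5). They were 2 of the 9 members tested, where 2.62% of all tested genes passed the same test and 1.64% passed with a higher level. edgeR and DESeq2 on the recovered reads called the same 2 members, where they called 4.14% and 9.38% of genes. No member passed with limma in the other comparisons with Untreated livers, and none passed between a drug and the carcinogen alone. The abundant members Hspd1, Hspe1 and Hspa8, at 105, 104 and 98.3 FPKM on average over the 25 libraries, passed in no comparison between groups.

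**Figure D1:**
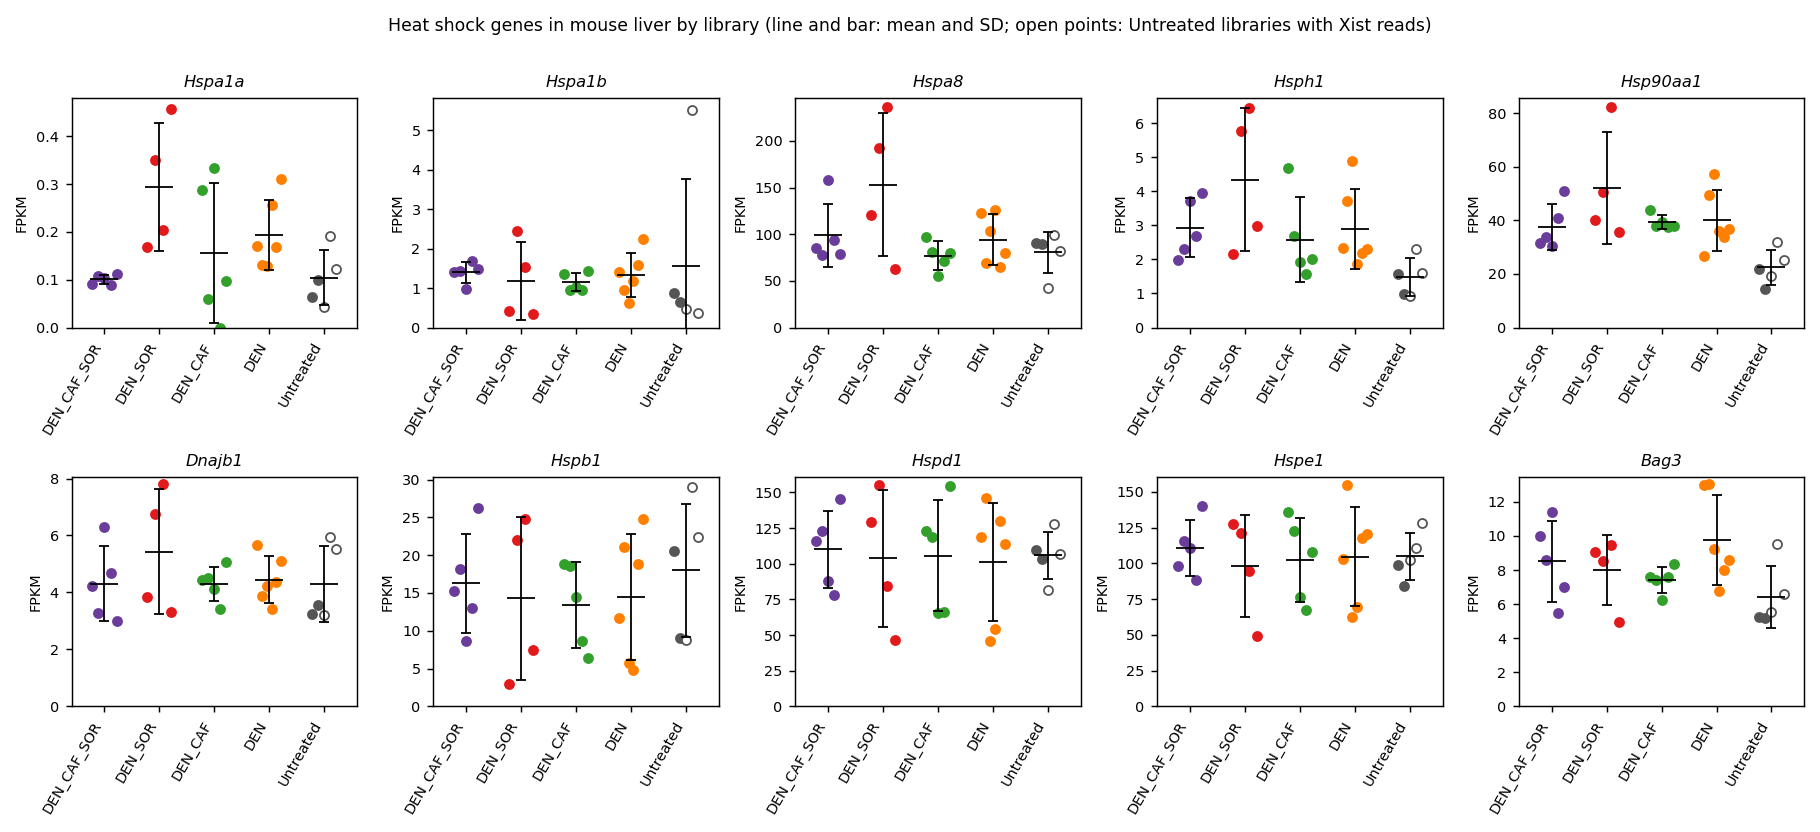
FPKM of the 10 heat shock genes (vertical axes, linear, from 0) in each of 25 liver libraries, by group (horizontal axes). Points are libraries, long ticks with bars are the mean and SD of a group (the bar is cut at 0 for Hspa1b in Untreated), and open points are the 3 Untreated libraries with Xist reads. All 4 DEN_SOR and all 5 DEN_CAF points of Hsp90aa1 lie above the 5 Untreated points.

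The stress-inducible HSP70 genes Hspa1a and Hspa1b encode nearly the same protein and lie 9951 bases apart on chromosome 17 (GRCm39), Hspa1a (ENSMUSG00000091971) at chr17:35188166-35191132 and Hspa1b (ENSMUSG00000090877) at chr17:35175412-35178214, both on the minus strand. Their upstream stretches are shown because they are nearly the same. They differ at 3 of 250 positions, given in capitals, in chr17:34972157-34972406 for Hspa1a and chr17:34959239-34959488 for Hspa1b (GRCm38.p6, minus strand).
Hspa1a upstream: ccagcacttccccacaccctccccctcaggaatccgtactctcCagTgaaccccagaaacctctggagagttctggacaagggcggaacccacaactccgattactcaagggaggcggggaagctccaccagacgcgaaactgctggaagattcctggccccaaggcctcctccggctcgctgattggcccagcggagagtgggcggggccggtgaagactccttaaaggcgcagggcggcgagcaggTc
Hspa1b upstream: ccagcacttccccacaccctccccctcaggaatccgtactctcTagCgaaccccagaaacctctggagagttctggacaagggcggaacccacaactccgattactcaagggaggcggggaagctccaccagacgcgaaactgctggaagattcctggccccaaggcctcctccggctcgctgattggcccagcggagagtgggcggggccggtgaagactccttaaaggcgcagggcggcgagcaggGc
Of the stretches of 100 bases in Hspa1a transcripts, 47.1% also occur in Hspa1b transcripts (GENCODE M21), and 49.9% of those of Hspa1b occur in Hspa1a. Reads from these shared stretches cannot be given to either gene with certainty. Both genes hold the match GAANNTTC beginning 104 bases before the start.

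Hspa1a and Hspa1b had the lowest levels of the 10 genes, and the sequence they share means that reads of either may have gone uncounted. Hspa1a had 0 to 20 reads per library, with 0 in DEN_CAF 4, where the counting limit of 3 reads applies. Hspa1b had 14 to 298 reads and reached 1 FPKM in 14 of the 25 libraries. Together they gave 1944 reads over the 25 libraries, of which 222 (11.4%, 95% Wilson interval 10.1% to 12.9%, counting error only) were assigned to Hspa1a. The share assigned to Hspa1a ran from 0% to 58.8% between libraries.

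Hspa1b had 1.40, 1.43, 0.969, 1.69 and 1.49 FPKM in the DEN_CAF_SOR livers and 0.426, 2.44, 1.52 and 0.339 in the DEN_SOR livers. It had 1.35, 0.961, 1.02, 0.955 and 1.43 FPKM in the DEN_CAF livers, and 0.619 to 2.24 with a median of 1.29 in the 6 DEN livers. The Untreated livers had 0.862, 0.635, 0.468, 5.51 and 0.369 FPKM. The groups overlapped, and Untreated 4 stood far above every other library of the series. The difference between DEN and Untreated was 0.12 on the log2(FPKM + 1) scale (SE 0.30, limma adjusted p = 0.889). Summed reads of both genes were 59 to 95 in DEN_CAF_SOR, 34 to 144 in DEN_SOR, 49 to 92 in DEN_CAF, 39 to 125 in DEN and 23 to 309 in Untreated livers.

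Hspa8 (ENSMUSG00000015656, chr9:40712280-40721383, plus strand) encodes the constitutive HSP70 that folds new chains and uncoats clathrin vesicles. It had 85.6, 77.3, 158, 93.9 and 78.2 FPKM in the DEN_CAF_SOR livers and 121, 192, 236 and 62.9 in the DEN_SOR livers. It had 97.1, 81.3, 55.5, 71.5 and 79.7 FPKM in the DEN_CAF livers, and 65.2 to 126 with a median of 91.3 in the DEN livers. Untreated livers had 90.1, 88.9, 42.6, 99.4 and 81.5 FPKM. DEN_SOR held both the highest libraries of the series and, apart from DEN_CAF 3 and Untreated 3, the lowest. DEN_SOR exceeded Untreated by 0.81 (SE 0.32, log2 scale), which did not pass the test over all genes (limma adjusted p = 0.171). Without DEN_SOR 4, the low library, the difference was 1.18 and passed (limma adjusted p = 0.0326). Leaving out a low library raises the group's mean, and this was the 1 of 38 alternatives that passed, with differences of 0.55 to 1.18. Against DEN, DEN_SOR differed by 0.58 (95% interval -0.07 to 1.22, limma adjusted p = 0.856). Of the stretches of 100 bases in Hspa8 transcripts, 28.5% recur in other annotated transcripts, so part of its reads may have been assigned elsewhere. The same limit holds for Hspb1 (44%), Hsp90aa1 (38%), Hspd1 (23.9%) and Hspe1 (11%), while Hsph1, Dnajb1 and Bag3 share 0%.

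Hsph1 (ENSMUSG00000029657, chr5:149537752-149559841, minus strand) encodes HSP110, which exchanges the nucleotide on HSP70 and helps to dissolve aggregates. It had 1.97, 2.31, 3.71, 2.70 and 3.97 FPKM in the DEN_CAF_SOR livers and 2.15, 5.77, 6.46 and 2.98 in the DEN_SOR livers. It had 4.70, 2.68, 1.92, 1.57 and 2.01 FPKM in the DEN_CAF livers, and 1.86 to 4.88 with a median of 2.32 in the DEN livers. The Untreated livers had 1.57, 0.987, 0.938, 2.31 and 1.59 FPKM. Only DEN_SOR 1 lay below the highest Untreated library among the DEN_SOR livers. DEN_SOR exceeded Untreated by 1.05 (SE 0.27, limma adjusted p = 0.0371).

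The Hsph1 call was close to the threshold. It was lost when any of several libraries was left out, with limma adjusted p of 0.0757 without DEN_SOR 2, 0.132 without DEN_SOR 3, 0.0663 without Untreated 1, 0.0707 without Untreated 2, 0.0852 without Untreated 3 and 0.0619 without Untreated 5. Without Untreated 3, 4 and 5 the difference was 1.15, with a limma adjusted p of 0.173. The other groups exceeded Untreated by 0.67 for DEN_CAF_SOR (SE 0.25), 0.50 for DEN_CAF (SE 0.25) and 0.63 for DEN (SE 0.24), and none of these passed, with limma adjusted p of 0.296, 0.434 and 0.182.

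Dnajb1 (ENSMUSG00000005483, chr8:84334822-84339282, plus strand) encodes the main stress-inducible J-domain protein of the cytosol. It had 4.24, 3.29, 6.30, 4.69 and 3.00 FPKM in the DEN_CAF_SOR livers and 3.83, 6.76, 7.81 and 3.32 in the DEN_SOR livers. It had 4.45, 4.50, 4.12, 3.42 and 5.06 FPKM in the DEN_CAF livers, and 3.40 to 5.66 with a median of 4.30 in the DEN livers. Untreated livers had 3.26, 3.57, 3.22, 5.96 and 5.53 FPKM. The 5 groups overlapped throughout, and the 4 differences from Untreated lay between 0.00 and 0.25 on the log2 scale. The direction in DEN_CAF_SOR, DEN_CAF and DEN turned under another scaling of the libraries.

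Bag3 (ENSMUSG00000030847, chr7:128125340-128148705, plus strand) links HSP70 to small heat shock proteins and to selective autophagy. It had 10.01, 8.61, 11.4, 5.47 and 6.99 FPKM in the DEN_CAF_SOR livers and 9.08, 8.54, 9.45 and 4.97 in the DEN_SOR livers. It had 7.57, 7.41, 6.23, 7.57 and 8.34 FPKM in the DEN_CAF livers, and 6.75 to 13.04 with a median of 8.90 in the DEN livers. The Untreated livers had 5.24, 5.16, 5.54, 9.54 and 6.60 FPKM. Every DEN library lay above 4 of the 5 Untreated libraries, and Untreated 4 lay among the DEN libraries. DEN exceeded Untreated by 0.53 (SE 0.19), which did not pass limma over all genes (adjusted p = 0.152). It passed with DESeq2 on the recovered reads (difference 0.57, adjusted p = 0.0342), where 8.29% of genes passed. It also passed with limma in the libraries not numbered 3 or 4, where the difference was 0.78 (adjusted p = 0.0457). Without Untreated 3, 4 and 5 it was 0.76 (limma adjusted p = 0.218).

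Hsp90aa1 (ENSMUSG00000021270, chr12:110657039-110669162, minus strand) encodes the inducible cytosolic HSP90. It had 31.5, 33.7, 30.3, 41.0 and 51.0 FPKM in the DEN_CAF_SOR livers and 39.9, 50.5, 82.2 and 35.8 in the DEN_SOR livers. It had 43.8, 37.9, 39.2, 37.4 and 37.9 FPKM in the DEN_CAF livers, and 26.6 to 57.1 with a median of 36.4 in the DEN livers. Untreated livers had 21.8, 14.4, 19.2, 31.8 and 25.2 FPKM. All DEN_SOR libraries and all DEN_CAF libraries lay above all Untreated libraries. Of all tested genes, 4.29% in DEN_SOR and 4.12% in DEN_CAF lay higher than Untreated without overlap, and no other member did. In DEN_CAF_SOR and DEN, where 3.12% and 2.6% of genes did, no member lay higher without overlap. Of the stretches of 100 bases in Hsp90aa1 transcripts, 38% recur in other annotated transcripts, so part of its reads may have been assigned elsewhere.

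The Hsp90aa1 difference between DEN_SOR and Untreated was 1.15 (SE 0.24, limma adjusted p = 0.0119). Without DEN_SOR 3, its highest library, the difference was 0.91 and did not pass (limma adjusted p = 0.0690). It passed under 35 of 38 alternatives, with differences of 0.91 to 1.43. Without Untreated 3, 4 and 5 the difference was 1.43 (limma adjusted p = 0.0427). It was 1.10 in the libraries numbered 3 or 4 alone, where the Untreated libraries all held many Xist reads, and 1.13 in the other libraries. The median of all genes moved to -0.16 and 0.13 in these subsets, so the likeness of the sizes depends on setting that shift aside. The Hsp90aa1 difference passed in the second subset and not in the first (limma adjusted p = 0.0467 and 0.254).

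The other carcinogen-exposed groups showed Hsp90aa1 differences from Untreated of similar size that missed the threshold. They were 0.73 in DEN_CAF_SOR (SE 0.23), 0.82 in DEN_CAF (SE 0.23) and 0.80 in DEN (SE 0.22), with limma adjusted p of 0.160, 0.0801 and 0.0540. For DEN it passed under 10 of 38 alternatives, among them edgeR (0.81, adjusted p = 0.0410, 4.69% of genes called) and DESeq2 (0.83, adjusted p = 0.00820) on the recovered reads. Without Untreated 3, 4 and 5, the DEN difference was 1.08 and did not pass (limma adjusted p = 0.128). These comparisons share the 5 Untreated libraries. Over all 5 groups at once, Hsp90aa1 had a limma F-test adjusted p of 0.0799 and Hsph1 of 0.242, so 0 members passed where 0.95% of genes did. At an unadjusted p under 0.05 the limma F-test took in 2 members, Hsp90aa1 and Hsph1, and 11.4% of all genes. By adjusted p, DESeq2 called the same 2 members and 6.44% of genes, and edgeR called 0 members and 2.17% of genes.

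Some values moved with the rise of Hsp90aa1 and Hsph1. The summed level of 5 cholangiocyte markers (Krt19, Krt7, Epcam, Sox9 and Spp1, genes of bile duct cells) was 18.7 to 189 FPKM in DEN_SOR, against 6.82 to 13.1 FPKM in Untreated livers. It was not particular to DEN_SOR, with 16.7 to 86.1 FPKM in DEN, 36.3 to 117 in DEN_CAF and 27.6 to 162 in DEN_CAF_SOR. Of the 5, Krt19, Krt7, Epcam and Spp1 passed the test in DEN_SOR against Untreated, where 2.62% of all tested genes did. Epcam differed by 1.99 and Spp1 by 3.07 (limma adjusted p = 0.00633 and 0.00515). Among these markers, Sox9 also passed in DEN (limma adjusted p = 0.0210), where 2.04% of genes did. Epcam and Spp1 passed in DEN_CAF (limma adjusted p = 0.0303 and 0.0251), where 1.01% did, and Spp1 in DEN_CAF_SOR (0.0476), where 0.494% did. None of these calls outside DEN_SOR passed without Untreated 3, 4 and 5. DEN_SOR 3, the library highest in Hsp90aa1, was also highest in these markers, while DEN_SOR 4 had 18.7 FPKM of them and 35.8 FPKM of Hsp90aa1. Over 25 libraries the correlation with the marker sum was 0.61 for Hsp90aa1 and 0.54 for Hsph1, and within groups it was 0.08 and 0.13. The endothelial marker Stab2 fell in DEN_SOR by 0.94 (limma adjusted p = 0.0378). Without Untreated 3, 4 and 5 Krt19, Krt7, Epcam, Spp1 and Stab2 did not pass in DEN_SOR, with limma adjusted p of 0.113 for Epcam, 0.117 for Spp1 and 0.290 for Stab2, and differences of 2.02, 2.96 and -0.82. In a piece of tissue, more cells of a type and more RNA per cell cannot be told apart, and the part of these cells in the heat shock result was not tested.

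Some clock and immediate early genes passed the test, mostly in DEN. In DEN, Hsp90aa1 and Hsph1 exceeded Untreated by 0.80 and 0.63 without passing (limma adjusted p = 0.0540 and 0.182). Their levels in DEN_SOR were not shown to differ from those in DEN. Of 15 tested clock genes, 3 passed in DEN against Untreated and 0 in DEN_CAF_SOR, DEN_SOR and DEN_CAF. Of 12 tested immediate early genes, 3 passed in DEN, 1 in DEN_SOR, 1 in DEN_CAF and 0 in DEN_CAF_SOR. Over all tested genes, 2.04% passed in DEN, 2.62% in DEN_SOR, 1.01% in DEN_CAF and 0.494% in DEN_CAF_SOR. Nr1d1, a repressor of the daily clock, had 5.59 to 37.6 FPKM in DEN_SOR and 3.28 to 15.9 in DEN, against 25.4 to 62.7 FPKM in Untreated livers. In DEN against Untreated, Nr1d1 fell by 2.41, Nr1d2 fell by 1.61 and Cry1, another clock repressor, rose by 1.47 (limma adjusted p = 0.00215, 0.000621 and 0.00531). These 3 also passed without Untreated 3, 4 and 5 (limma adjusted p = 0.0447, 0.0315 and 0.0193). Egr1, Ier2 and Zfp36, immediate early genes, also fell in DEN, and Dusp1, a phosphatase of that class, fell in DEN_SOR and in DEN_CAF. Without those Untreated libraries none of these 4 passed, with limma adjusted p of 0.169, 0.319 and 0.108 for Egr1, Ier2 and Zfp36, and 0.104 and 0.0986 for Dusp1. Within groups, Hsp90aa1 correlated with Nr1d1 at -0.64 and Hsph1 at -0.69 over 25 libraries. The part of the clock genes' shift in the heat shock result was not tested.

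**Figure D2:**
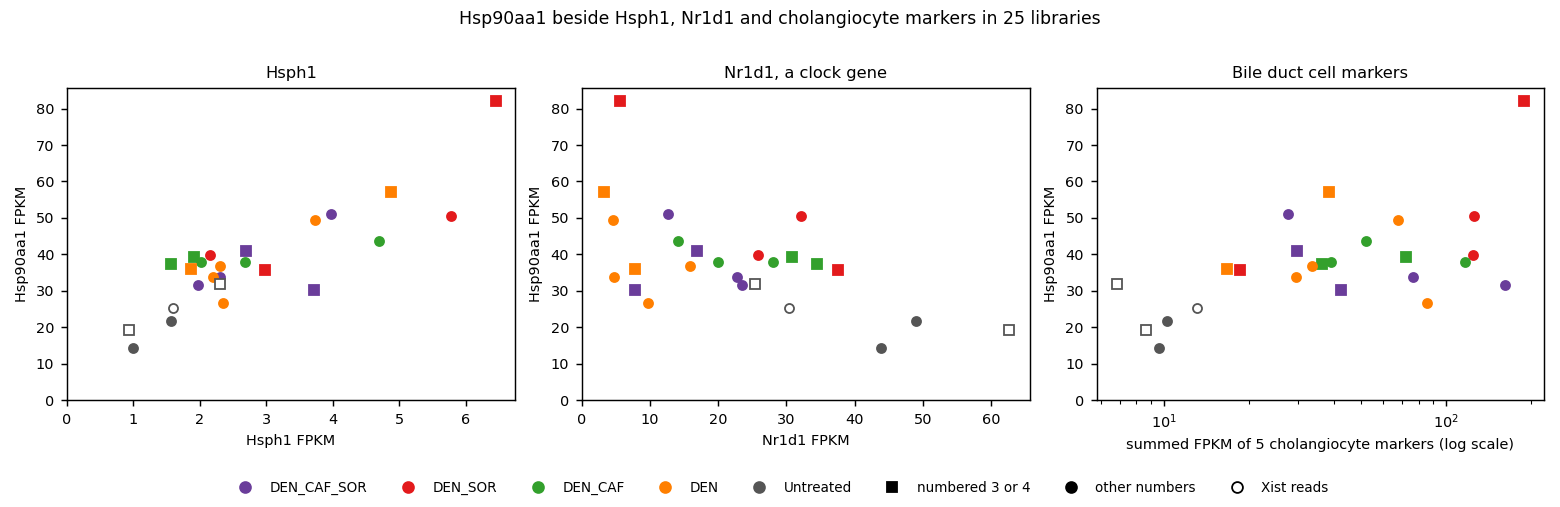
Hsp90aa1 (vertical axes, FPKM) against Hsph1, the clock gene Nr1d1 and the summed level of 5 cholangiocyte markers (horizontal axes, FPKM, the last on a log scale) in 25 libraries. Colours are groups, squares are libraries numbered 3 or 4 and open symbols are Untreated libraries with Xist reads. Hsp90aa1 and Hsph1 run together, with DEN_SOR 3 highest in both at 82.2 and 6.46 FPKM, and the Untreated libraries lie at the low end of the marker sum, at 6.82 to 13.1 FPKM.

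Hspb1 (ENSMUSG00000004951, chr5:135916773-135918417, plus strand), the small heat shock protein of the set, was the most variable of the well-expressed members, with a 10.03-fold span between libraries. It had 15.3, 18.2, 8.65, 13.03 and 26.2 FPKM in the DEN_CAF_SOR livers and 2.89, 22.1, 24.8 and 7.43 in the DEN_SOR livers. It had 18.8, 18.5, 14.5, 8.63 and 6.36 FPKM in the DEN_CAF livers, and 4.77 to 24.8 with a median of 15.3 in the DEN livers. The Untreated livers had 20.6, 9.03, 8.79, 29.0 and 22.4 FPKM. Each group held both high and low libraries. DEN_SOR differed from Untreated by -0.54 (95% interval -1.64 to 0.56, limma adjusted p = 0.618). Hspb1 varied with the summed level of 5 endothelial markers, at a correlation of 0.70 over 25 libraries and 0.75 within groups. This was not particular to endothelium. Over 25 libraries its correlation was 0.65 with stellate cell markers, -0.56 with neutrophil markers and -0.52 with B and plasma cell markers. The part of any cell type in the spread of Hspb1 was not tested.

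Hspd1 (ENSMUSG00000025980, chr1:55116994-55127402, minus strand) and Hspe1 (ENSMUSG00000073676, chr1:55127291-55130466, plus strand) encode the barrel and the lid of the mitochondrial folding chamber. They lie head to head and their listed coordinates overlap by 112 bases, where reads counted without strand could not be told apart. Their levels were nearly equal, 105 ± 32.8 and 104 ± 26.0 FPKM (SD, n = 25). Hspd1 averaged 110, 104, 106, 101.5 and 106 FPKM in DEN_CAF_SOR, DEN_SOR, DEN_CAF, DEN and Untreated livers. Hspe1 averaged 111, 98.2, 102, 105 and 105 FPKM in the same groups. No pair of groups differed for either gene, and the 4 differences from Untreated lay between -0.17 and 0.07 on the log2 scale. Their 95% intervals for DEN against Untreated were -0.84 to 0.50 for Hspd1 and -0.59 to 0.47 for Hspe1.

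Hspd1 and Hspe1 differed more by the number of the library than by group. Hspd1 had 88.2 and 78.4 FPKM in DEN_CAF_SOR 3 and 4, 84.7 and 46.7 in DEN_SOR 3 and 4, and 65.4 and 66.2 in DEN_CAF 3 and 4. It had 45.8 and 54.4 FPKM in DEN 3 and 4, and 81.3 and 128 in Untreated 3 and 4. All of these but Untreated 4 lay below every library with another number, which had 103.6 to 155 FPKM. Hspe1 averaged 83.2 ± 21.4 FPKM in the libraries numbered 3 or 4 (SD, n = 10), against 119 ± 18.3 FPKM in the other libraries (SD, n = 15).

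Many of the libraries with low Hspd1 and Hspe1 had many reads from the mitochondrial genome, but not all. DEN 4 had 54.4 FPKM of Hspd1 at a mitochondrial share of 9.58%, whereas DEN_CAF 2 had 119 FPKM at 9.81%. Within the 10 libraries numbered 3 or 4, the correlation with the mitochondrial share was -0.77 for Hspd1 and -0.79 for Hspe1 (Spearman -0.68 and -0.71). It was -0.48 and -0.49 without the 2 libraries farthest from the median share. Within the 15 other libraries it was 0.04 and 0.33. Reads of all genes share the library total, and with mitochondrial genes left out of the total the correlations within the 10 libraries were -0.52 and -0.49. On that total, Hspd1 averaged 90.2 FPKM in the libraries numbered 3 or 4, against 136 FPKM in the others. The numbers were read from the labels, which do not say what they stand for, and the part of RNA quality or preparation was not tested.

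**Figure D3:**
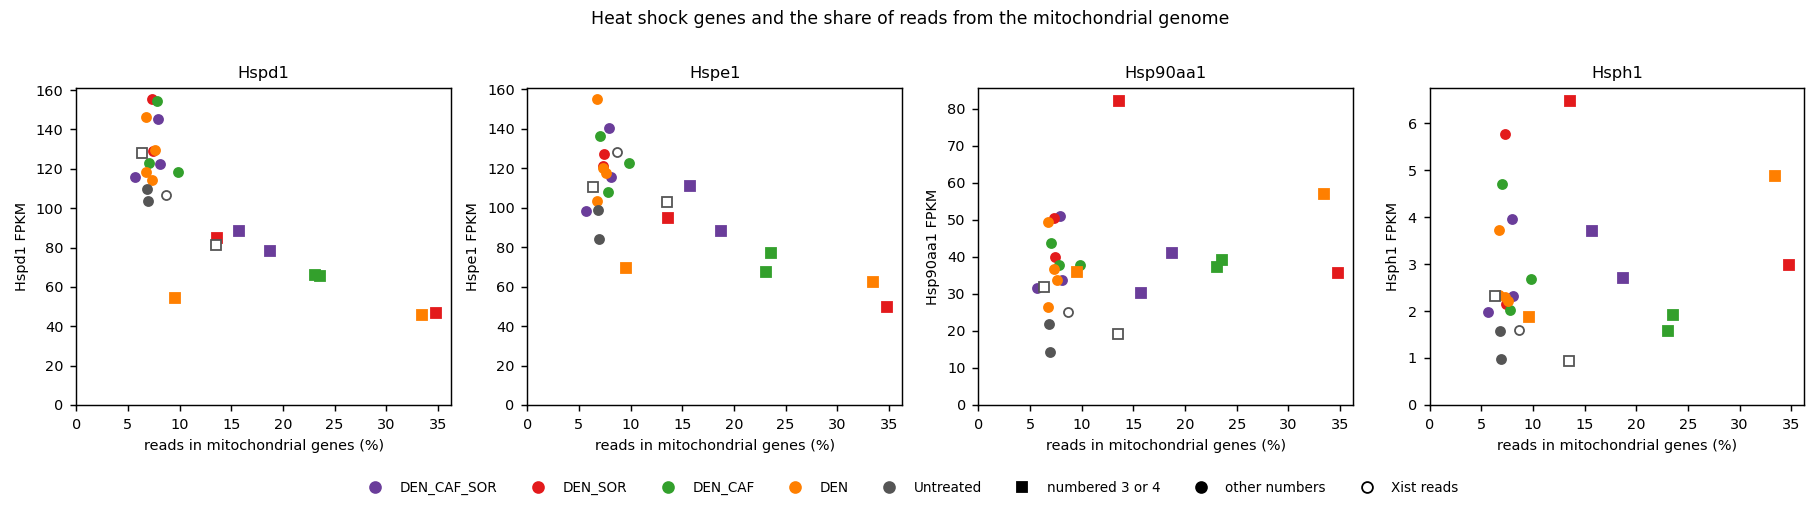
FPKM of Hspd1, Hspe1, Hsp90aa1 and Hsph1 (vertical axes, from 0) against the percentage of reads in mitochondrial genes (horizontal axes) in 25 libraries. Colours are groups, squares are libraries numbered 3 or 4, and open symbols are Untreated libraries with Xist reads. Hspd1 is at 45.8 to 88.2 FPKM in 9 of the 10 squares and at 103.6 FPKM or more in all circles. For Hsp90aa1 the squares run from 19.2 to 82.2 FPKM and the circles from 14.4 to 51.0. For Hsph1 they run from 0.938 to 6.46 FPKM and from 0.987 to 5.77.

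Neither drug changed a member detectably once the carcinogen had been given. DEN_CAF_SOR, DEN_SOR and DEN_CAF were each compared with DEN, and 0 of 9 members passed in each, also with edgeR and DESeq2. Of all tested genes, limma called 0% for DEN_CAF_SOR, 0% for DEN_SOR and 0.00785% for DEN_CAF, edgeR the same shares, and DESeq2 0%, 0.243% and 0.0785%, so the count of members is that of the background. At an unadjusted p under 0.05 there were 0 members in each, against 2.72%, 6.19% and 2.81% of all genes. Hsp90aa1 differed from DEN by -0.07 in DEN_CAF_SOR (95% interval -0.53 to 0.38), 0.34 in DEN_SOR (-0.14 to 0.83) and 0.02 in DEN_CAF (-0.44 to 0.47). Hsph1 differed from DEN by 0.04 in DEN_CAF_SOR (-0.47 to 0.54), 0.42 in DEN_SOR (-0.12 to 0.95) and -0.13 in DEN_CAF (-0.64 to 0.37). The rise of both genes in DEN_SOR over Untreated was therefore not shown to differ from the difference in DEN.

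Between the drugs, 0 of 9 members passed in each of 3 comparisons, where 0% of all genes did with limma and edgeR. DESeq2 also called 0 members, and 0.00785% of genes for DEN_CAF_SOR against each single drug. The largest of these differences was that of Hspa8 in DEN_CAF minus DEN_SOR, at -0.84 (SE 0.32, limma adjusted p = 1). At an unadjusted p under 0.05 this was 1 of 9 members, where 3.74% of all genes lay. The other pairs, DEN_CAF_SOR against DEN_SOR and DEN_CAF_SOR against DEN_CAF, held 0 such members, against 3.39% and 2.95% of all genes. The interaction of caffeine with sorafenib, the effect of both less the sum of each alone, was -0.43 for Hsp90aa1 (SE 0.33) and 0.40 for Bag3 (SE 0.29), and 0 of 9 members passed (limma adjusted p = 0.992 for both, 0% of all genes). edgeR and DESeq2 called 0 members there, with 0% and 0.0863% of genes, and 0 members had an unadjusted p under 0.05, against 3.97% of genes.

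The counts over the members in each comparison with Untreated stand beside those over all tested genes. In DEN_SOR, 5 of 9 members were higher, as were 49.7% of all tested genes, with a median of 0.25 against -0.00 over all genes. In DEN_CAF_SOR, 8 of 9 members were higher, as were 54.9% of all genes, with a median of 0.19 against 0.03 over all genes, and 0 passed where 0.494% of genes did (1.3% with edgeR and 3.1% with DESeq2, also 0 members). In DEN_CAF, 5 of 9 were higher, as were 57.5% of all genes, with a median of 0.03 against 0.04, and 0 passed where 1.01% of genes did (1.71% with edgeR and 3.62% with DESeq2, also 0 members). In DEN, 6 of 9 were higher, as were 54.3% of all genes, with a median of 0.12 against 0.03, and 0 passed with limma where 2.04% of genes did. At an unadjusted p under 0.05 the counts were 2 members in DEN_CAF_SOR, 3 in DEN_SOR, 1 in DEN_CAF and 3 in DEN, against 11.5%, 18.6%, 12.3% and 16.5% of all genes.

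**Figure D4:**
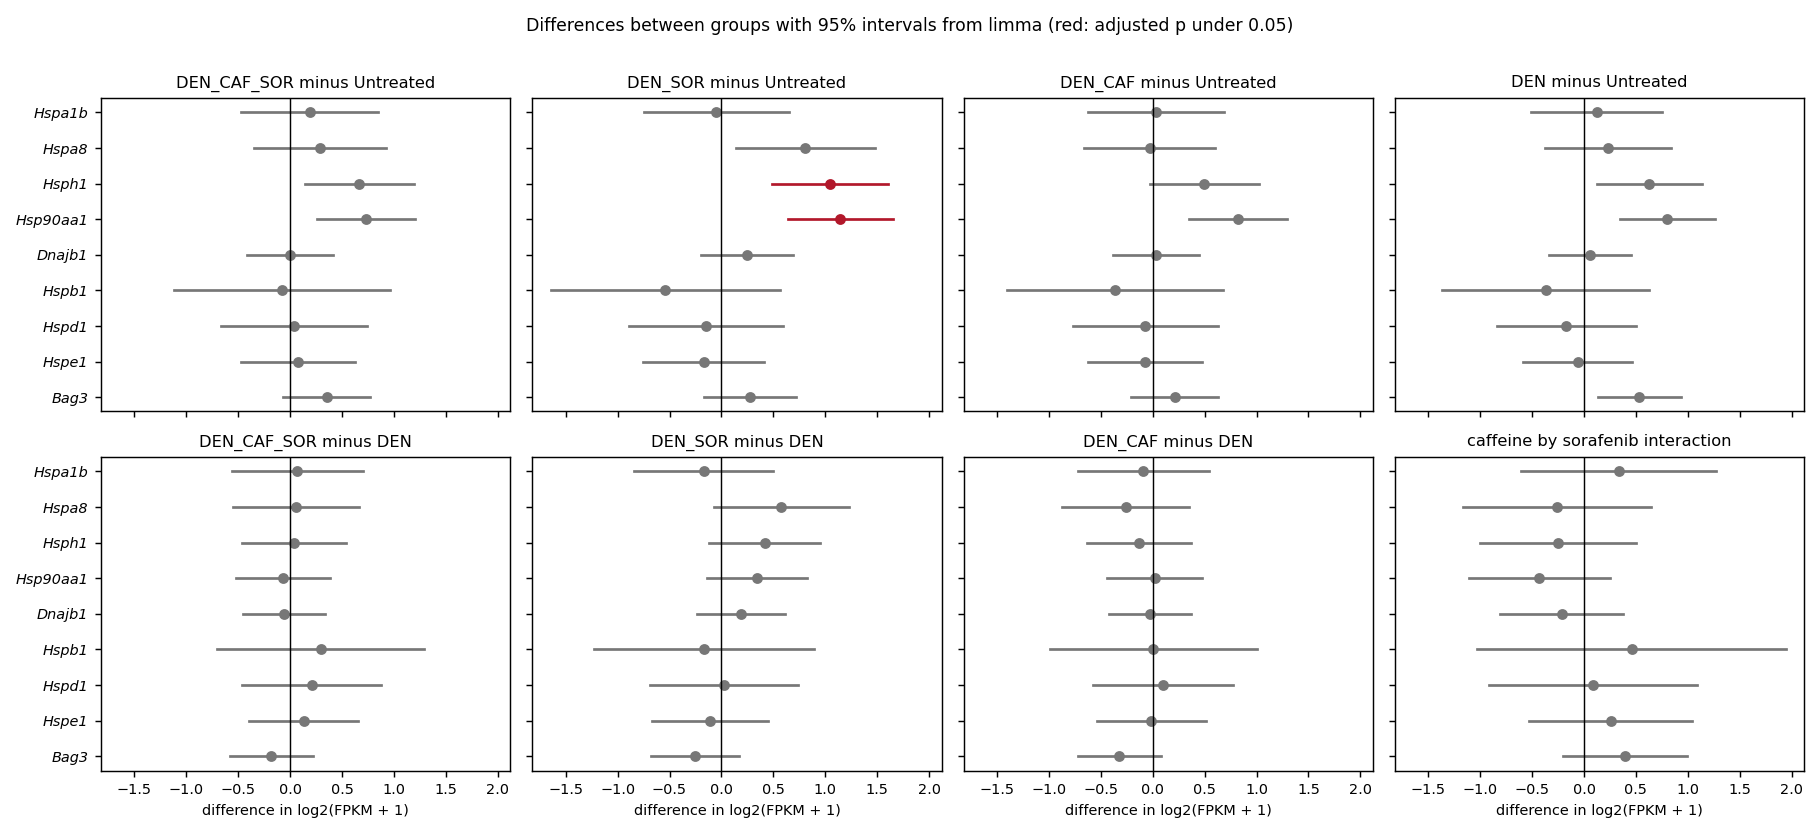
Differences of 9 heat shock genes (rows) on the log2(FPKM + 1) scale (horizontal axes) in the 4 comparisons with Untreated, the 3 comparisons with DEN and the interaction of the drugs. Points are differences, lines 95% intervals from limma, and red marks an adjusted p under 0.05. Red points appear for Hsp90aa1 (1.15) and Hsph1 (1.05) in DEN_SOR against Untreated alone.

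Calls among other genes of the pathway stand beside the share of all tested genes called against Untreated. That share was 2.62% in DEN_SOR, 2.04% in DEN, 1.01% in DEN_CAF and 0.494% in DEN_CAF_SOR. At such shares, lists of this size hold few calls. Of 15 HSP90 proteins and their co-chaperones, all tested, 0 passed in any comparison with Untreated. In DEN_SOR 13 of them were higher, as were 49.7% of all tested genes, with a median of 0.23. Hspa4l, an HSP110 relative, was the only called gene among 5 tested HSP70 and HSP110 relatives, and rose by 0.57 in DEN_SOR against Untreated (SE 0.15, limma adjusted p = 0.0378). Without Untreated 3, 4 and 5 it was at 0.62 and did not pass (limma adjusted p = 0.197). Hspa4l had 1.66 ± 0.356 FPKM in DEN_SOR, against 0.775 ± 0.102 FPKM in Untreated livers (SD, n = 4 and 5). None of the 7 tested factors and regulators of the HSF family or 13 J-domain proteins passed against Untreated. The same held for 19 genes of endoplasmic reticulum chaperones and the unfolded protein response, of which none passed. Nor did any of 12 mitochondrial quality control genes or 14 subunits of the cytosolic chaperonin and prefoldin pass. Of the 19 genes of endoplasmic reticulum chaperones and the unfolded protein response, 16 were higher in DEN, with a median of 0.26. Of all tested genes, 54.3% were higher. Hspa5, a chaperone among these 19, named after its value was seen, was at 0.84 in DEN (limma adjusted p = 0.163). Of 4 tested small heat shock proteins other than Hspb1, 0 passed and 2 were higher in DEN_SOR. Those 2, named after their values were seen, were Cryab at 0.83 and Hspb8 at 0.69 (limma adjusted p = 0.0745 and 0.157). Hsf1, the factor that switches on the response, averaged 2.83 FPKM in DEN_SOR and 2.54 FPKM in Untreated livers.

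Some members rose and fell together over libraries, most closely in 3 pairs. Hspd1 and Hspe1 correlated at 0.89 over 25 libraries (Spearman 0.80) and at 0.89 within groups. Hsph1 and Hsp90aa1 correlated at 0.84 (Spearman 0.72, within groups 0.74), and Hspa8 and Dnajb1 at 0.68 (Spearman 0.56, within groups 0.67). The 4 cytosolic genes of these pairs also correlated across them, more weakly by rank. Hspa8 with Hsph1 was at 0.61 (Spearman 0.39, within groups 0.49). Hsph1 with Dnajb1 was at 0.49 (Spearman 0.43, within groups 0.49). Hspa8 with Hsp90aa1 was at 0.41 (Spearman 0.17, within groups 0.27), and Hsp90aa1 with Dnajb1 at 0.33 (Spearman 0.15, within groups 0.30). DEN_SOR 3 was the highest library of the series for these 4 genes. With Hspd1, Hsp90aa1 correlated at -0.05 and Hspa8 at 0.10, but Hspb1 at 0.48 and Bag3 at 0.37 (within groups 0.47 and 0.51). With Hspe1, Hspb1 was at 0.51 and Bag3 at 0.42 (within groups 0.49 and 0.51). Hspa1b with Hspb1 was at 0.55 (Spearman 0.52, within groups 0.56). Of 45 pairs of members, 6 exceeded 0.5, 4 lay below 0 and the median was 0.29. These are descriptions over libraries that share depth and mitochondrial share. With mitochondrial genes left out of the total, the first 2 pairs correlated at 0.79 and 0.85, and without Untreated 3, 4 and 5 at 0.91 and 0.80.

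**Figure D5:**
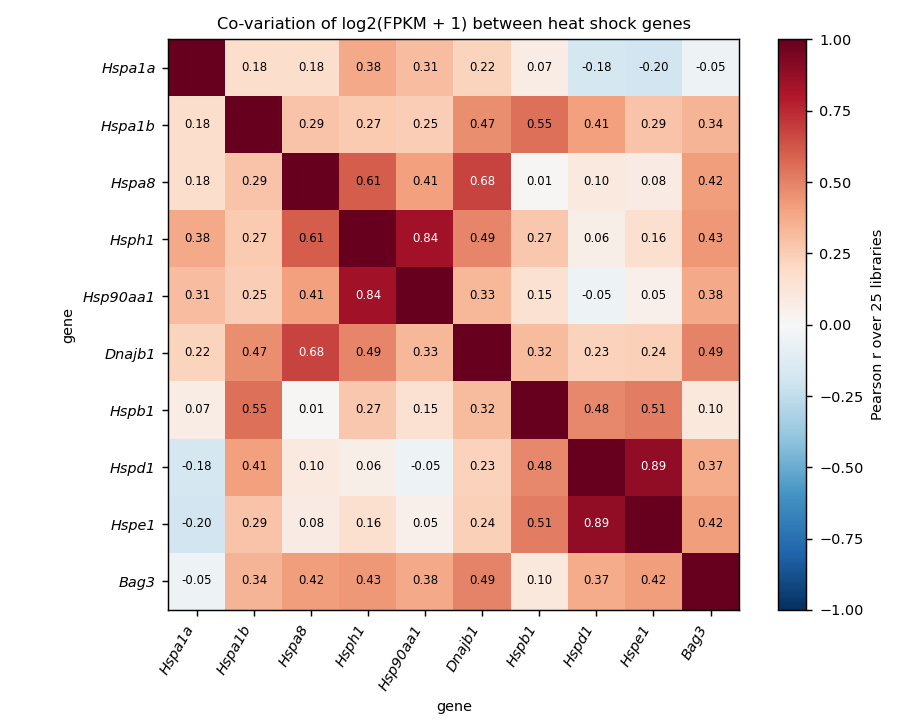
Pearson correlation of log2(FPKM + 1) over 25 libraries between each pair of 10 heat shock genes (both axes), with red for positive and blue for negative values. The darkest cells off the diagonal are Hspd1 with Hspe1 (0.89) and Hsph1 with Hsp90aa1 (0.84).

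Outside the set, the genes most like the mean of the standardised members over 25 libraries were Hsp90ab1 (0.86), Zc3h15 (0.83), Nf2 (0.82), Ptges3 (0.82), Chordc1 (0.81) and Kat8 (0.81). Hsp90ab1 is the constitutive HSP90, and Ptges3 and Chordc1 are HSP90 co-chaperones. Hsp90ab1 averaged 154 ± 49.5 FPKM in DEN_SOR, against 122 ± 32.1 FPKM in Untreated livers (SD, n = 4 and 5), and exceeded the mean level of Hsp90aa1 in every group. Single libraries also stood out over many members at once. DEN_SOR 3 was the highest of all 25 libraries for Hspa8, Hsph1, Hsp90aa1 and Dnajb1, and Untreated 4 was the highest of its group for 9 of the 10 members.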

How the data were processed

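Liver RNA of 25 mice was sequenced from libraries made with a SMARTer kit, per the labels' protocols. The submitters' processing notes name HISAT2 2.0.5, featureCounts 1.5.0-p3 and GRCm39. Which annotation release and strand setting were used is not given in the sources used here. Although called FPKM, the values the authors deposited are a signal: reads divided by 1 size factor per library, scaled within each group's table. All were whole reads within a tolerance of 0.01 read. Reads were therefore recovered and turned into FPKM with each library's total and the gene lengths listed, which departs from the design's assumption that FPKM was deposited. The filter on low values kept the genes that reached 1 FPKM in 4 or more libraries (12741 of the 24774 present in all 5 tables). limma 3.58.1 (R 4.3.3) was fitted to log2(FPKM + 1) over all libraries, two-sided, with Benjamini-Hochberg adjustment over all tested genes and a threshold of 0.05. All differences are on this scale, where the pseudocount makes changes of low genes look smaller. edgeR 4.0.16 and DESeq2 1.42.0 on the recovered reads, other scalings and filters, left-out libraries and a batch term were alternatives. The fit was tested on simulated data. pandas 2.3.3 and Matplotlib 3.10.9 made the tables and figures. Depth was 14750278 to 21992613 reads per library. All 10 members are named. From the other lists, genes called in a pairwise comparison were named, at most 4 per list and comparison, as were the 6 genes most like the members. Members and lists were chosen with earlier results of these data known.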

Additional observations from a re-analysis of the deposited data

Results flagged for a closer look

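Untreated 4 had 5.51 FPKM of Hspa1b, against 0.369 to 0.862 FPKM in the other 4 Untreated livers. The gap to its neighbour took up more of the group's range than Dixon's limit allows. Untreated 4 is 1 of the 3 libraries with Xist reads and was the highest of its group for 9 of the 10 members. DEN_CAF_SOR 3 had 158 FPKM of Hspa8, against 77.3 to 93.9 FPKM in the other 4 livers of that group, and stood apart by the same measure. It was also the highest of its group for Dnajb1 and Bag3. Over the 50 groups of values looked at, chance flags about 1 in 20 groups.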

How the results depend on the processing

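In DEN_SOR against Untreated, 2 members were called. The count was 1 (Hsp90aa1) with no filter on low values, in libraries not numbered 3 or 4, and without Untreated 3, 4 and 5. It was 0 in libraries numbered 3 and 4 alone and in a fit of only the groups compared. Leaving out 1 library at a time gave 0 (without DEN_SOR 3) to 3 (without DEN_SOR 4, which added Hspa8). In DEN against Untreated, 0 members were called. The count was 1 (Hsp90aa1) with a pseudocount of 0.1, with a total free of mitochondrial genes, with edgeR and with a batch term for libraries numbered 3 and 4. It was also 1 (Hsp90aa1) with the mitochondrial share as a covariate, an alternative chosen after seeing the data. In libraries not numbered 3 or 4 it was 1 (Bag3), and with DESeq2 it was 2. Leaving out 1 library at a time gave 0 to 1, with Hsp90aa1 called without DEN 1, DEN_SOR 3, DEN_SOR 4 or Untreated 4. In DEN_CAF against Untreated the count was 1 (Hsp90aa1, adjusted p = 0.0451 with limma) in a fit of only the groups compared, and 0 otherwise. In the F-test it was 2 with DESeq2, and 0 to 1 when 1 library was left out. The causes were not tested. The count was 0 under every alternative run for DEN_CAF_SOR against Untreated, for the drug comparisons and for the interaction.

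Replicate numbers were not taken to pair the mice: same-numbered libraries correlated at -0.28 to 0.54 in their deviations from group means, with medians of -0.06 for number 1 and 0.11 to 0.24 for the others. With the replicate block, 1 member was called in DEN_SOR against Untreated, Hsp90aa1 at 1.17 (limma adjusted p = 0.0217), and Hsph1 was at 1.05 (limma adjusted p = 0.0597).

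Over all genes, DEN against Untreated gave 260 calls with limma, 598 with edgeR and 1056 with DESeq2, and DEN_SOR against Untreated gave 334, 527 and 1195. Totals over all genes moved too. For DEN they were 364 with a pseudocount of 0.1, 321 free of mitochondrial genes, 477 with the batch term, 568 with the covariate and 166 in libraries not numbered 3 or 4. For DEN_SOR they were 310 with no filter, 284 with the block, 81 and 403 in libraries numbered 3 and 4 and in the others, 308 with only the groups compared and 49 without Untreated 3, 4 and 5. For DEN_CAF the total was 129, and 284 with only the groups compared. In the F-test it was 121, and 820 with DESeq2. Of 18 calls of listed genes against Untreated, 3 passed without those libraries, and all 18 kept their sign. Of 97 differences of members that were not called, 63 changed sign under at least 1 alternative and 17 under another scaling. Depth limits Hspa1a most, at 0 to 20 reads per library.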
